A study of Sus scrofa with 10 samples.

Results

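The most abundant mRNAs of pig blood were described over 5 ages. Of the 12354 mRNAs in the table, the 10 with the highest mean FPKM over the 10 libraries were taken, and the 8 among them whose FPKM summed over the 8 was lower at D180 than at D0 are the subject here. FPKM gives the fragments of a transcript relative to its length and to the mapped fragments of its own library, so levels can be compared between genes. The other 2 of the 10 enter only sums. Blood was taken from 10 healthy female Qingyu pigs, a different pig for each library, with 2 pigs at each age. The ages were 0 days (D0, newborn), 7 days (D7, suckling), 28 days (D28, weaning), 180 days (D180, sexual maturity) and 2 years (Y2, adult). No pig was treated and none was followed over time. The samples were unsorted whole blood, from which ribosomal RNA had been depleted before sequencing.

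The reference names 3 of the 8 mRNAs. HBB (ENSSSCG00000014725) encodes the beta chain of haemoglobin, FTL (ENSSSCG00000003153) the light chain of ferritin, and TPT1 (ENSSSCG00000040929) the translationally controlled tumour protein, which is made at high levels in many growing cells. The other 5 are given by their identifiers, ENSSSCG00000007978, ENSSSCG00000034995, ENSSSCG00000031740, ENSSSCG00000014727 and ENSSSCG00000038379. In RefSeq on Sscrofa11.1, HBB is a protein-coding gene on chromosome 9 from 4800683 to 4801941. FTL lies on chromosome 6 from 54231121 to 54232756 and TPT1 on chromosome 11 from 21929294 to 21932905. All 3 spans are those of whole genes, introns included.

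Haemoglobin is built from alpha-type and beta-type chains, each of which carries a haem group with its iron atom. Mammalian red cells lose their nucleus before they mature, and the youngest red cells in the circulation, the reticulocytes, still carry the mRNA made earlier in the bone marrow. Globin mRNA is therefore usually the most abundant mRNA in whole blood. Ferritin stores iron inside cells, and its synthesis is controlled by iron through the translation of its mRNA.

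The members were selected on measured values, chosen by their mean FPKM and by their summed FPKM at D180 against D0, so the levels at these ages are a description and were not tested. Among the 12354 mRNAs the lowest mean level inside the choice was that of FTL, with 5042 FPKM, and the next mRNA below it had 3978 FPKM. The means of the 8 ranged up to 319952 FPKM for HBB.

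In sum the 8 mRNAs made up most of the mRNA signal of blood at every age but D180. In newborn pigs they held 87.2% ± 0.695 (SD, n = 2) of the summed mRNA FPKM, and D7 pigs were close, with 87.9% ± 0.469. The share was 81.4% ± 0.600 by D28, 44.9% ± 2.02 by D180 and again 74.0% ± 1.04 in Y2 pigs. The D180 libraries stood at 43.5% and 46.3%, below the other 8, which lay between 73.3% and 88.3%. The D28 and Y2 libraries also lay apart from each other and from those of D0 and D7, whereas D0 and D7 overlapped. As FPKM, the sum was 923543 ± 1134 at D0 and 335715 ± 9300 at D180, and 672349 ± 53905 at Y2. The fall in the sum from D0 to D180 was 2.75-fold in FPKM.

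**Figure D1:**
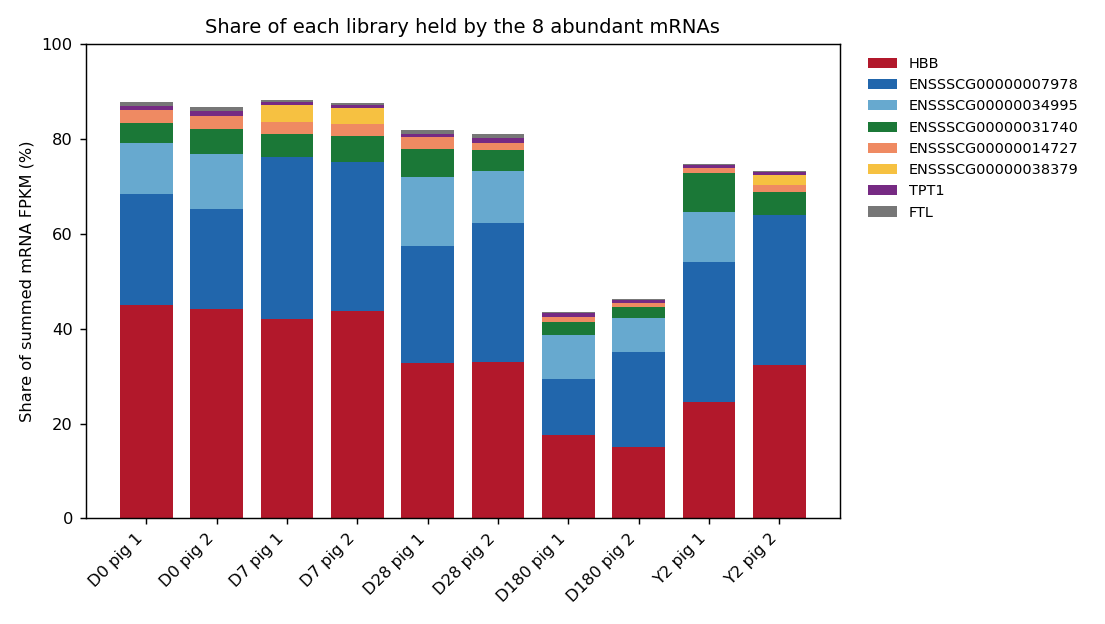
Stacked bars give, for each of the 10 libraries (x axis, 2 pigs per age), the share of the summed mRNA FPKM (y axis, percent) held by each of the 8 mRNAs. The bars of D180 end at 43.5% and 46.3%, and all others end between 73.3% and 88.3%.

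The other 2 of the 10 most abundant mRNAs held 2.11% of the summed mRNA FPKM at D0 and 23.3% at D180. All remaining mRNAs together held between 9.60% and 16.3% on average at the other ages and 31.8% at D180. The summed mRNA FPKM itself was not constant, with 1059187 ± 9741 (SD, n = 2) at D0 and 747763 ± 12907 at D180. The mRNAs outside the 10 summed to 113291 ± 7789 FPKM at D0, 93213 ± 4086 at D7 and 238020 ± 3667 at D180. The median mRNA was higher at D180 than at D0 by 1.63 on the log2(FPKM + 1) scale, at D28 than at D7 by 0.46, and at Y2 than at D28 by 0.41. With median-of-ratios scaling, which brings the libraries to a common level on the assumption that most mRNAs do not change, these medians were 0.03, 0.02 and -0.02, and the sum of the 8 was 18.2-fold lower at D180 than at D0.

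HBB was the most abundant mRNA in 7 of the 10 libraries and among the 3 most abundant in all of them. It had 473197 and 470930 FPKM in the D0 pigs, 408938 and 424983 at D7, and 343904 and 320288 at D28. At D180 the pigs had 133644 and 111246 FPKM, and at Y2 233169 and 279220. The order of the ages was D0, D7, D28, Y2 and D180, and the libraries of no neighbouring ages overlapped. Its share of the summed mRNA FPKM was 44.6% ± 0.561 (SD, n = 2) at D0 and 16.4% ± 1.84 at D180.

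ENSSSCG00000014727 followed HBB at a lower level. It had 28919 and 31320 FPKM at D0, and 24548 and 24355 at D7. The D28 pigs had 26039 and 15871 FPKM, the D180 pigs 7130 and 6094, and the Y2 pigs 10453 and 12568. The D28 pigs differed most, and only D7 and D28 overlapped among neighbouring ages. On the log2(FPKM + 1) scale its Pearson's r with HBB was 0.97 over the 10 libraries, the highest between any member and another. Its FPKM was between 0.0448 and 0.0757 times that of HBB in every library, while the FPKM of HBB itself spanned 111246 to 473197.

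ENSSSCG00000007978 was the second most abundant of the 8 and had another order of ages. Its levels were 245879 and 224316 FPKM at D0, and 331271 and 304681 at D7. The D28 pigs had 258130 and 286389 FPKM, the D180 pigs 88044 and 147284, and the Y2 pigs 280095 and 273814. Both D7 pigs were above all other pigs and both D180 pigs below them, and Y2 and D28 overlapped. It stood above HBB in pig 2 of D180 and pig 1 of Y2. Its ratio to HBB was 0.520 and 0.476 at D0, 0.659 and 1.32 at D180, and 1.20 and 0.981 at Y2.

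ENSSSCG00000031740 had 44372 and 55031 FPKM at D0, and 47960 and 53296 at D7. The D28 pigs had 62848 and 43017 FPKM, the D180 pigs 20363 and 16252, and the Y2 pigs 78154 and 41975. Only the D180 libraries stood apart, below all the others, and the other 4 ages overlapped. The wide gap between the Y2 pigs was also seen in the ratio to HBB, 0.335 in pig 1 and 0.150 in pig 2.

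TPT1 had the smallest range over the ages. Its levels were 10304 and 11143 FPKM at D0, and 6620 and 6809 at D7. The D28 pigs had 7700 and 8652 FPKM, the D180 pigs 6088 and 5642, and the Y2 pigs 5450 and 5262. In FPKM the order was D0, D28, D7, D180 and Y2 with no overlap between neighbours. The lowest age in FPKM was thus Y2 and not D180. With median-of-ratios scaling TPT1 was lowest at D180, with 2121 and 1861 against 3408 and 3312 at Y2. It was then also higher at D7, with 13202 and 12632, than at D28, with 7689 and 8908. Its share of the summed mRNA FPKM was 1.01% ± 0.0467 (SD, n = 2) at D0 and 0.784% ± 0.0287 at D180.

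FTL had 7212 and 7891 FPKM at D0, and 4417 and 4613 at D7. The D28 pigs had 7732 and 8426 FPKM, the D180 pigs 2167 and 2000, and the Y2 pigs 3157 and 2806. It was thus high at D0 and D28, which overlapped, and lower at D7 between them. D7, Y2 and D180 followed with no overlap. On the log2(FPKM + 1) scale the SD between the pigs of an age, pooled over the 5 ages, was 0.09 for FTL and 0.08 for TPT1, and the median over the other 181 mRNAs of at least 100 mean FPKM was 0.09. It was 0.12 for HBB, 0.25 for ENSSSCG00000007978, 0.25 for ENSSSCG00000014727 and 0.36 for ENSSSCG00000031740.

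**Figure D2:**
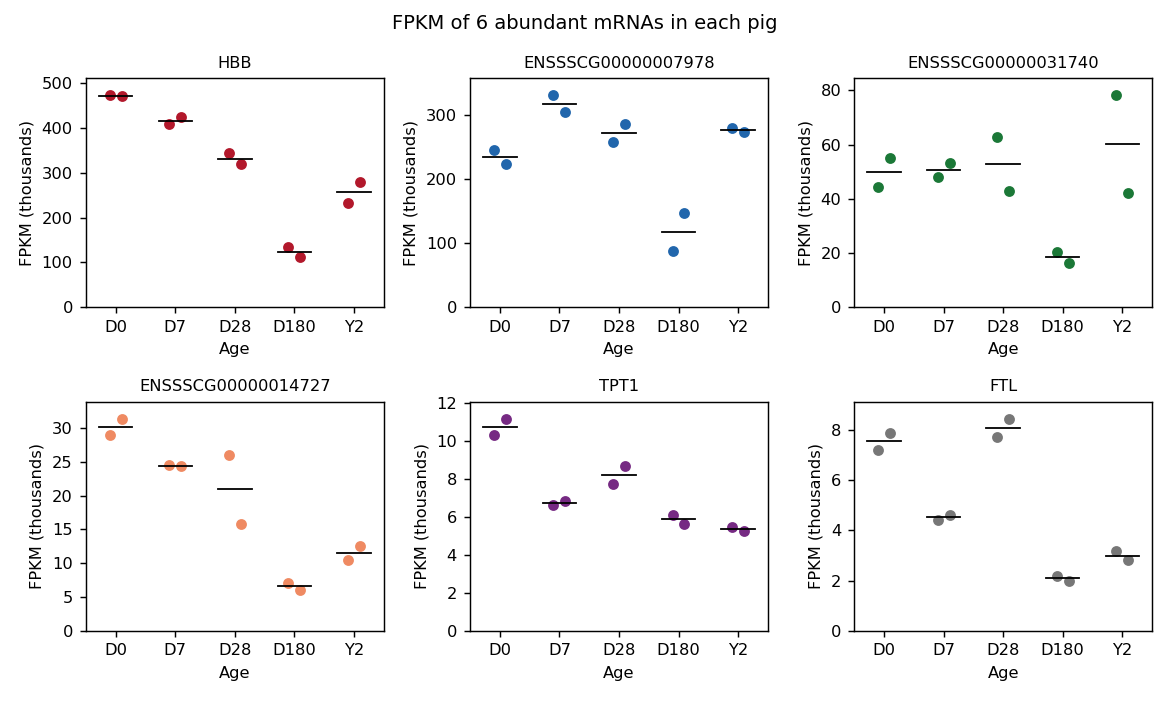
Each panel shows 1 of 6 mRNAs, with age on the x axis and FPKM divided by 1000 on the y axis, which starts at 0. Points are single pigs and lines the means of the 2 pigs. HBB, ENSSSCG00000014727 and FTL are lowest at D180, and so are ENSSSCG00000007978 and ENSSSCG00000031740, while TPT1 is lowest at Y2.

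ENSSSCG00000034995 and ENSSSCG00000038379 alternated between libraries. ENSSSCG00000034995 had 112857 and 123713 FPKM at D0, 150727 and 105994 at D28, 71703 and 53773 at D180, and 99987 in pig 1 of Y2. It was listed at 0 and 0.0145 FPKM at D7 and at 0 in pig 2 of Y2. In these 3 libraries ENSSSCG00000038379 had 34457, 31600 and 18587 FPKM.

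In the other 7 libraries ENSSSCG00000038379 was between 0.00306 and 0.163 FPKM. Each library thus held one of the pair at 18587 FPKM or more and the other near 0. The switch fell between the pigs of 1 age at Y2, and at the other 4 ages both pigs were alike. ENSSSCG00000038379 alone was not lower at D180, where it had 0.0152 and 0.0117 FPKM, than at D0, where it had 0.00306 and 0.00837, and it belongs to the 8 through their sum.

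Such switching was rare in the table. Of the 41 mRNAs above 1000 FPKM in at least 1 library, these 2 were the only ones that also fell below 0.5 FPKM in another. Of the 358 above 100 FPKM, 5 did so, the pair included. Neither has a name or position in the reference used here, so whether they share sequence, and whether reads of one could be assigned to the other, was not tested.

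Taken as one quantity, the pair still differed between the libraries. The 3 libraries with ENSSSCG00000038379 held 3.54%, 3.26% and 2.15% of the summed mRNA FPKM in the pair, and the 7 with ENSSSCG00000034995 held between 7.28% and 14.4%. The pair was also summed with ENSSSCG00000007978, which held most of the resulting sum in every library. This sum of 3 identifiers was 358736 and 348030 FPKM at D0, and 365728 and 336281 at D7. It was 408857 and 392383 FPKM in the D28 pigs, 159746 and 201057 in the D180 pigs, and 380082 and 292401 in the Y2 pigs. This sum overlapped between D0, D7 and Y2, and it was lowest at D180. Its pooled SD between the pigs of an age was 0.17 on the log2 scale, against 0.25 for ENSSSCG00000007978 alone and 0.80 for the pair. The sum of 3 was also chosen after seeing the data. Whether the 3 identifiers form a single quantity was not tested.

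**Figure D3:**
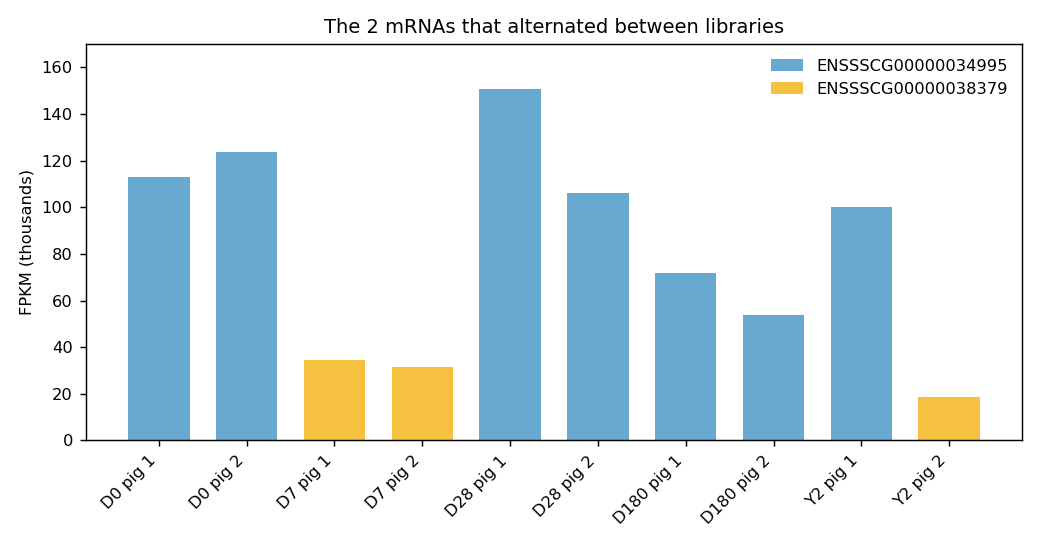
Bars show, for each of the 10 libraries (x axis), the FPKM divided by 1000 (y axis) of ENSSSCG00000034995 in blue and ENSSSCG00000038379 in yellow, stacked. Each bar has a single colour because the other mRNA is at or below 0.163 FPKM, and yellow fills the D7 pigs and pig 2 of Y2.

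Ratios between these mRNAs within a library do not depend on how libraries are scaled to each other. FTL per TPT1 differed little between the pigs of an age and strongly between ages. The ratio was 0.700 and 0.708 at D0, and 0.667 and 0.677 at D7. It was 1.00 and 0.974 in the D28 pigs, 0.356 and 0.354 in the D180 pigs, and 0.579 and 0.533 in the Y2 pigs. No ages overlapped, with D28 highest and D180 lowest. TPT1 per HBB was highest at D180, at 0.0456 and 0.0507, and lay between 0.0160 and 0.0270 in all the other libraries. The sum of ENSSSCG00000007978, ENSSSCG00000034995 and ENSSSCG00000038379 per HBB was 0.758 and 0.739 at D0 and 0.894 and 0.791 at D7. It was between 1.05 and 1.81 in all 6 libraries of D28, D180 and Y2. No test of these ratios was made.

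**Figure D4:**
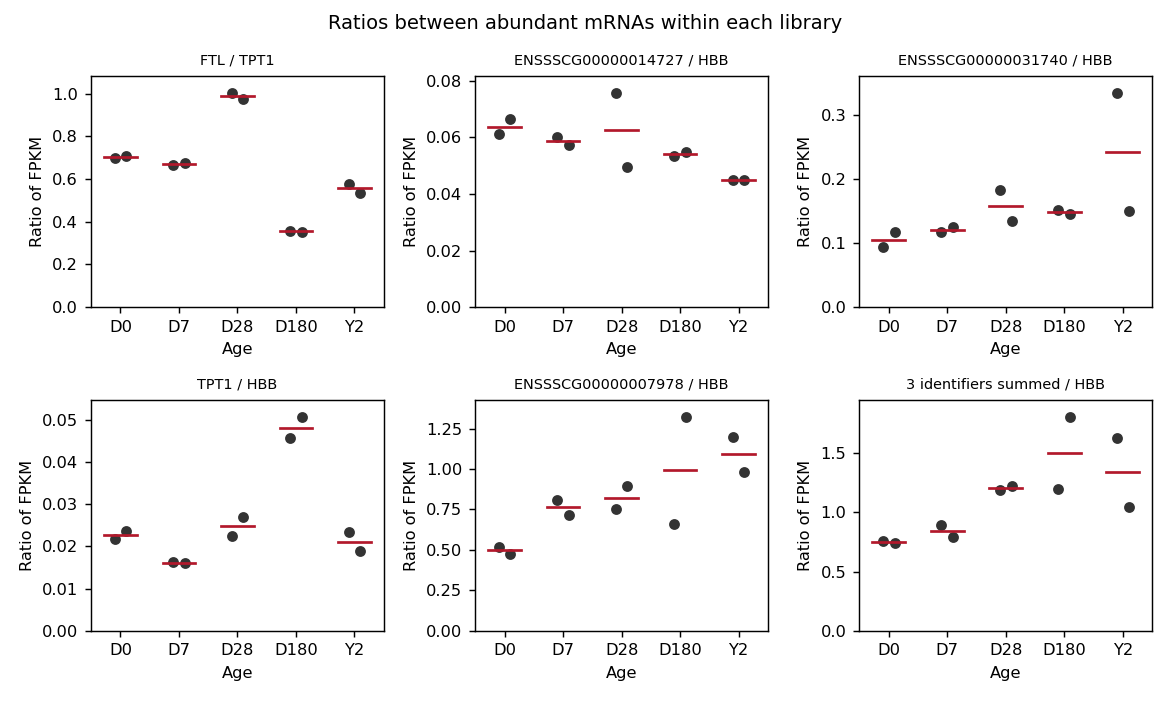
Each panel shows a ratio of FPKM within a library (y axis, from 0) by age (x axis), with points for pigs and lines for means of 2 pigs. The panel of 3 summed identifiers holds ENSSSCG00000007978, ENSSSCG00000034995 and ENSSSCG00000038379. FTL per TPT1 separates all 5 ages, from 0.354 at D180 to 1.00 at D28.

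All 10 libraries entered the mean that chose the members, but the differences among D7, D28 and Y2 were not the contrast of the choice, and they were tested with limma on log2(FPKM + 1), fitted to all 12354 mRNAs and all 5 ages with Benjamini-Hochberg adjustment over the table. The 3 comparisons share libraries with each other. A call was an adjusted p of at most 0.05. Fewer cells of a type and less RNA per cell cannot be told apart in whole blood.

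From D7 to D28, 1 of the 6 mRNAs other than the alternating pair was called, whereas 71.2% of all mRNAs were called, 65.3% higher and 5.9% lower. FTL rose by 0.84 ± 0.12 (SE) on the log2 scale (limma adjusted p = 0.000281), with both D28 pigs above both D7 pigs. ENSSSCG00000034995 was at or near 0 at D7 and ENSSSCG00000038379 at D28. The latter reached the 10 highest means only through the D7 pigs and pig 2 of Y2, so the levels of the pair at these ages are a description, with no test and no fold. Summing the pair was chosen after seeing the data, so its sum is described too. It was 34457 and 31600 FPKM in the D7 pigs, and 150727 and 105994 in the D28 pigs. In the Y2 pigs the sum was 99987 and 18587 FPKM, so that Y2 overlapped with D7.

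HBB, ENSSSCG00000007978, ENSSSCG00000014727, ENSSSCG00000031740 and TPT1 were not called from D7 to D28. The difference of HBB was -0.33, with a 95% interval of -0.92 to 0.26, and that of TPT1 was 0.28, with an interval of 0.01 to 0.56 before adjustment. HBB was called lower in 2 of the alternative fits and scalings listed below. With median-of-ratios scaling FTL had a difference of -0.09 and was not called, and TPT1 was called lower, by 0.64. Without pig 1 of D28, TPT1 was called higher and ENSSSCG00000014727 lower.

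From D28 to Y2, 3 of the 6 mRNAs other than the alternating pair were called, all lower. Of all mRNAs, 70.0% were called, 6.16% lower and 63.9% higher. FTL fell by 1.44 ± 0.12 (SE) on the log2 scale (limma adjusted p = 1.81e-05), TPT1 by 0.61 ± 0.12 (adjusted p = 0.00205) and ENSSSCG00000014727 by 0.83 ± 0.23 (adjusted p = 0.0123). For these 3 mRNAs both Y2 pigs were below both D28 pigs. The differences of HBB, -0.38 with a 95% interval of -0.97 to 0.21, and of ENSSSCG00000007978, 0.03 with an interval of -0.65 to 0.70, did not pass. For HBB both Y2 pigs were nevertheless below both D28 pigs, and it was called lower when limma was fitted without the mean-variance trend. The call of ENSSSCG00000014727 was lost without pig 1 of D28 (-0.47), without pig 1 of Y2 (-0.69) and when only D28 and Y2 were fitted.

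From D7 to Y2, 4 of the 6 mRNAs other than the alternating pair were called, all lower. Of all mRNAs, 87.8% were called, 3.78% lower and 84.0% higher. ENSSSCG00000014727 fell by 1.09 ± 0.23 on the log2 scale (limma adjusted p = 0.00192), HBB by 0.71 ± 0.26 (adjusted p = 0.0279), FTL by 0.60 ± 0.12 (adjusted p = 0.00115) and TPT1 by 0.33 ± 0.12 (adjusted p = 0.0294). The difference of ENSSSCG00000031740 was 0.18, with a 95% interval of -0.56 to 0.92. The calls of HBB and TPT1 were lost without either D7 pig or without pig 1 of Y2, that of TPT1 also without pig 2 of Y2, and that of HBB also without either D0 pig. Both were also lost with the replicate number as a block, that of HBB with a pseudocount of 0.1, and that of TPT1 when the mRNA FPKM of each library were scaled to one common sum. With median-of-ratios scaling all 6 mRNAs other than the alternating pair were lower at Y2. ENSSSCG00000031740 was then called, at -1.44. With a log2 change of at least 1.5 also required, 2.4% of all mRNAs were called from D7 to D28, 3.42% from D28 to Y2 and 12.2% from D7 to Y2. Of the 6 mRNAs other than the alternating pair, limma then called 0 in each comparison, where 2, 3 and 4 of them had an unadjusted p under 0.05.

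**Figure D5:**
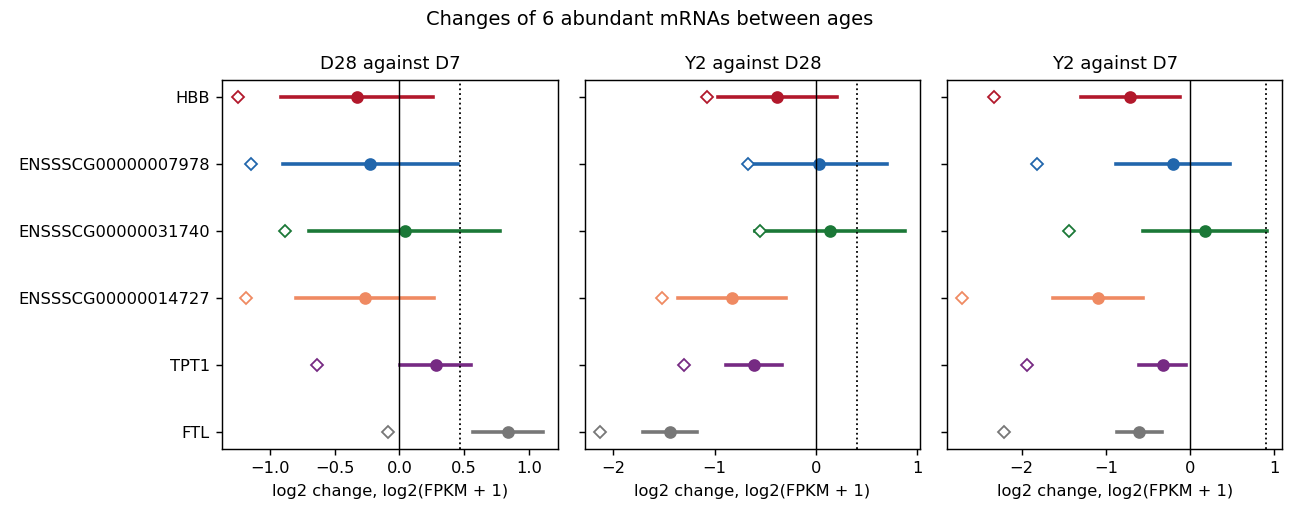
Filled points show the log2 change (x axis, log2(FPKM + 1) scale) of 6 mRNAs (y axis) in the 3 comparisons, and bars the 95% intervals of limma. Open diamonds show the change after median-of-ratios scaling, and dotted lines the median change of all 12354 mRNAs, which is 0.46, 0.41 and 0.90. All 6 filled points but FTL at D28 against D7 lie left of the dotted line.

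The other genes of red cell biology were counted from lists of symbols. Of the haemoglobin chains, HBM (mu), HBZ (zeta, an embryonic alpha-type chain) and HBQ1 (theta) were in the table beside HBB. HBZ had 350.9 and 382.3 FPKM at D0 and 7.91 and 7.15 at D180, a change of -5.43 ± 0.09 (SE) on the log2 scale (limma adjusted p = 2.36e-09). HBM had 3945 and 4028 FPKM at D0 and 903.3 and 865.5 at D180, and fell by 2.17 ± 0.14 (adjusted p = 3.29e-07). HBQ1 fell too, so that 3 of 3 were called lower at D180 than at D0, against 95.9% of all mRNAs called, 3.46% lower and 92.5% higher. This held with each of the 3 other scalings.

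Of the 8 enzymes of haem synthesis, 7 were called lower at D180 than at D0 and 1 higher, with a median change of -2.14 on the log2 scale. The shares of all mRNAs, 3.46% lower and 92.5% higher, apply to each count at D180 against D0 below as well. ALAS2, the erythroid enzyme of the first step, had 4102 and 4242 FPKM at D0 and 1525 and 1369 at D180. FECH, which inserts iron in the last step, had 146.2 and 159.4 FPKM at D0 and 27.0 and 24.1 at D180. From D7 to D28, 7 of the 8 were called higher, as were 65.3% of all mRNAs. ALAS2 rose by 0.38 ± 0.10 (limma adjusted p = 0.00981), less than the median of all mRNAs, 0.46. With median-of-ratios scaling only 1 of the 8 was called higher, and 2 were called lower. From D28 to Y2, 6 were called lower and 2 higher, against 6.16% of all mRNAs lower and 63.9% higher. With median-of-ratios scaling 6 of the 8 were called lower and none higher.

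All 9 of the listed red cell enzymes and late erythroid proteins in the table were called lower at D180 than at D0. AHSP, which stabilises free alpha haemoglobin, had 1054 and 1075 FPKM at D0, and 609.6 and 630.7 at D7. The D28 pigs had 194.9 and 146.1 FPKM, the D180 pigs 105.7 and 90.5, and the Y2 pigs 247.8 and 233.3. Its change from D7 to D28 was -1.87 ± 0.13 (SE) on the log2 scale (limma adjusted p = 1.04e-05). Of the 9 genes of this list, 5 were called higher and 2 lower from D7 to D28, with a median change of 0.31. Of all mRNAs, 65.3% were called higher and 5.9% lower. With median-of-ratios scaling 1 of the 9 was called higher and 6 lower. PRDX2, a peroxide-removing enzyme of red cells, changed by -2.55 ± 0.11 from D28 to Y2 (adjusted p = 4.69e-07).

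Of the 14 listed genes of the red cell membrane and skeleton, 11 were called lower at D180 than at D0 and 3 higher. SLC4A1, the anion exchanger known as band 3, had 38.7 and 39.1 FPKM at D0 and 8.65 and 8.08 at D180. DMTN, which bundles actin under the membrane, was called higher, with 118.6 and 120.3 FPKM at D0 and 152.8 and 139.8 at D180. Of the 13 genes of iron handling and haem breakdown other than FTL, 4 were called lower and 9 higher, and with median-of-ratios scaling 8 lower and 1 higher. NCOA4, which delivers ferritin for breakdown, had 1019 and 1060 FPKM at D0 and 85.5 and 93.0 at D180, and BLVRB, a biliverdin reductase, 200.4 and 207.7 and then 38.2 and 34.1.

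Of 9 erythroid transcription factors, 3 were called lower at D180 than at D0 and 5 higher, and 6 lower and 1 higher with median-of-ratios scaling. GATA1 was among those called lower, with 18.6 and 19.7 FPKM at D0 and 6.12 FPKM in both D180 pigs. NFE2, the most abundant of the list, was not called, with 35.4 and 39.1 FPKM at D0 and 46.8 and 46.6 at D180. Of 48 cytosolic ribosomal protein genes, 33 were called higher and 7 lower at D180, and with median-of-ratios scaling 47 were called lower and none higher, so that no direction can be given for them apart from the scaling. RPLP0, of the large subunit, was among the 7, with a change of -1.42 ± 0.08. RPS15A was among the 33 called higher, with a change of 0.70 ± 0.13.

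Markers of the blood cell types did not all move the same way from D0 to D180. The 7 red cell markers in the table summed to between 5272 and 5436 FPKM at D0 and between 1482 and 1654 at D180, and all 7 were called lower at D180. The 6 T cell markers summed to between 35.1 and 43.2 FPKM at D0 and between 262.2 and 303.0 at D180, and the 4 B cell markers to at most 5.32 at D0 and at least 82.1 at D180. All of these T and B cell markers were called higher at D180, as were 92.5% of all mRNAs, so these counts are near the share of the whole table. The 4 monocyte markers rose from at most 8.11 to at least 65.2 FPKM in sum, and all 4 were called higher. Of the 6 neutrophil markers 4 were called lower and 2 higher. Their sum was nevertheless higher at D180, with 136.7 and 132.9 FPKM against 92.0 and 90.7 at D0. All 3 platelet markers were called higher. With median-of-ratios scaling, 2 T cell markers, 4 B cell markers and 3 monocyte markers were called higher. Under it, 1 monocyte marker, all 3 platelet markers and all red cell markers were called lower. The neutrophil markers were again 4 lower and 2 higher. The lowest value of any listed marker in a library was 0.0361 FPKM, of a neutrophil marker at D180. The part of cell type proportions in the levels of the 8 mRNAs was not tested.

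Among the 1864 other mRNAs of at least 10 mean FPKM, the 5 most like the sum of the 8 over the 10 libraries were AQP1 (r = 0.96), ALAS2 (r = 0.96), ENSSSCG00000040098 (r = 0.95), MARCHF2 (r = 0.94) and FBXO9 (r = 0.93), on the log2(FPKM + 1) scale. AQP1 is the water channel of the red cell membrane. For single members, the most similar mRNA was BLVRB for ENSSSCG00000014727 (r = 0.97), SLC25A39, a mitochondrial carrier, for ENSSSCG00000007978 (r = 0.94), and MARCHF2, a ubiquitin ligase, for HBB (r = 0.95). FTL was most like RIOK3, a kinase, with an r of 1.00 when rounded, and TPT1 most like PPP2CB, a phosphatase subunit, with 0.98. ENSSSCG00000031740 was most like AQP1, with 0.93. ENSSSCG00000034995 and ENSSSCG00000038379 had lower best values, 0.89 with MXD4 and 0.79 with KIAA1191. All of these values come from the same 10 libraries and the same totals.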

How the data were processed

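Ribosomal RNA was depleted from total blood RNA, strand-specific libraries were sequenced, and reads were aligned to Sscrofa11.1. The submitters' processing notes name HISAT2 2.0.4, StringTie 1.3.3 and Cufflinks 2.2.1. The authors deposited FPKM, 1 column per pig, for 12354 mRNAs above 0.5 FPKM and 5946 lncRNAs above 0.1 FPKM in at least 1 library. How reads of near-identical genes were shared is not given in the sources used here. FPKM tables do not state the reads behind a value, and the number of pigs limits precision. Groups came from the sample titles.

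Symbols matched 9735 mRNAs, 3 members included. Members and gene lists were chosen with earlier results of these data known. Named genes were the members, their most similar mRNAs, and up to 4 genes per list by highest mean FPKM of at least 10.

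The tests used limma (version 3.58.1, R 4.3.3). Values entered as log2(FPKM + 1), which understates changes of low genes, with a mean-variance trend, 5 ages in 1 fit and Benjamini-Hochberg adjustment. The fit was also run on simulated data in which few mRNAs changed, all at D28. That setting does not cover comparisons in which most mRNAs are called. Other steps used Python 3.11.15 with pandas 2.3.3. Alternatives were a pseudocount of 0.1, 3 scalings, a filter of 1 FPKM in 2 libraries, fits of the compared ages only, with the replicate number as a block, or without the trend, a log2 fold change of at least 1.5, and each pig left out. Median-of-ratios factors used 11527 mRNAs and ranged from 0.437 to 3.03.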

Additional observations from a re-analysis of the deposited data

How the results depend on the processing

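Of 450 recomputed differences (8 mRNAs in 3 comparisons, under each alternative), 415 kept their direction and side of the limit or, where neither fit called them, changed sign only, 16 lost their call, 16 gained one and 3 called or newly called ones changed sign. The 450 include those of the alternating pair, which support nothing whether they changed or not. The 3 that changed sign all came with median-of-ratios scaling: TPT1 (-0.64) and FTL (-0.0854) from D7 to D28, and ENSSSCG00000031740 (-1.44) from D7 to Y2. That scaling also lowered the number of all mRNAs called, from 8797 to 5079 for D28 against D7, from 8652 to 4007 for Y2 against D28 and from 10849 to 5029 for Y2 against D7, and of these 44.6%, 48.2% and 43.2% were higher, against 91.7%, 91.2% and 95.7%. When libraries were scaled without the 10 highest mRNAs, 80.4% of the calls at D28 against D7 were higher. From D7 to D28 the 8 gave 3 calls, of which 2 were the alternating pair and support nothing, and 5 when scaled without the 10 highest mRNAs or without the trend. From D28 to Y2 they gave 3, and from D7 to Y2 4, of which 2 were left with the replicate block. With a log2 change of at least 1.5 also required, limma called 0 of the 6 outside the pair in the last 2 comparisons. There 3 and 4 of them had an unadjusted p under 0.05. With each pig left out, the 8 gave 3 to 5 calls for D28 against D7 (5 without pig 1 of D28), 2 to 4 for Y2 against D28, and 2 to 5 for Y2 against D7 (2 without either D7 pig). Without pig 1 of Y2 the calls for Y2 against D28 included ENSSSCG00000034995 and ENSSSCG00000038379, which alternate between the Y2 pigs. The causes were not tested. Same-numbered pigs are different animals, and the correlation of their deviations from the age means lay between -0.0819 and 0.0775 over the 10 pairs of ages, so the replicate block pairs nothing beyond a number. Without the other 2 of the 10 highest mRNAs in the total, the 8 held 89.1% in D0 pigs, 90.2% in D7 pigs, 86.7% in D28 pigs, 58.5% in D180 pigs and 81.9% in Y2 pigs. With 1 pig of an age left out, the other gave 86.7% to 87.7% for D0, 87.6% to 88.3% for D7, 81.0% to 81.8% for D28, 43.5% to 46.3% for D180 and 73.3% to 74.7% for Y2. Adding the lncRNAs to the total moved it by less than the SD of the pigs at every age.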

Other observations

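No lncRNA in the deposited lncRNA table overlapped the RefSeq span of HBB, FTL or TPT1. Of the lncRNAs near these genes, those named here were chosen after their values were seen. Within 100 kb of these genes lay 3, 3 and 2 lncRNAs. The 3 near HBB were at or below 0.523 FPKM in every library, and TCONS_00185574, on the minus strand of chromosome 9 from 4829694 to 4829804, had its highest values in the D7 pigs, at 0.428 and 0.523 FPKM, and was at 0 in both D0 and both Y2 pigs. Near FTL, TCONS_00144308, on the plus strand of chromosome 6 from 54203317 to 54204524, had 0.0967 and 0.0255 FPKM at D0 and 0.877 and 1.10 FPKM at D180. TCONS_00153090, also near FTL, had 0.128 and 0.280 FPKM at D0 and 0.906 and 1.35 at D180. All lncRNAs together summed to 2536 and 3458 FPKM at D0 and 12716 and 12128 at D180, so such a rise is not particular to these lncRNAs. A link with FTL was not tested.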
